A study of Mus musculus with 15 samples.

Results

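The genes described are 9 integrin subunits and 1 integrin ligand, Vcam1, followed across macrophages of 6 mouse tissues. They were taken by symbol: the alpha subunits Itgam, Itgax, Itgal and Itgad with their beta partner Itgb2, the alpha subunits Itga4 and Itga6 with Itgb1, the beta subunit Itgb5, and Vcam1. All 10 were found among the 24084 genes of the corrected count table and in the RPKM table. The filter on low counts kept 15289 genes, and all 10 were among them. Itgad passed it only through the spleen libraries, so that its difference between tissues was bound to be large.

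Integrins are surface receptors made of 1 alpha and 1 beta chain, and the chain pair sets what the cell can bind. In macrophages the Itgb2 family (Itgam, CD11b; Itgax, CD11c; Itgal, CD11a; Itgad, CD11d) binds ICAM molecules, fibrinogen and complement fragments. Itga4 with Itgb1 binds VCAM-1 and fibronectin, Itga6 with Itgb1 binds laminin, and Itgb5 with Itgav binds vitronectin and other proteins with an RGD site. VCAM-1 itself is best known on inflamed endothelium, and it is also a surface marker of macrophages that clear red cells in the red pulp of the spleen.

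All libraries came from ex vivo cells of strain C57BL/6J, sorted as F4/80+CD45+ and sequenced as low-input total RNA. The brain group is called microglia (3 libraries) and the spleen group SpM (3), and macrophages of visceral and subcutaneous fat, which the labels call anti-inflammatory, are vATM (2) and sATM (2). Sympathetic-associated macrophages (SAM) were taken from ganglia (SAM ganglia, 3) and from nerve fibers dissected out of inguinal fat (SAM fibers, 2). The labels name no genotype and no treatment, and the letters ND in the titles are not explained there. Spleen, brain and fat were digested with collagenase alone, fibers with hyaluronidase and then collagenase, and ganglia with collagenase and then trypsin. Tissue came from 10 mice, and nothing in the labels ties each library to its own animals, so p-values here reflect library-to-library spread, part or all of which may be technical. In such bulk samples fewer cells of a type and less RNA per cell cannot be told apart.

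Depth in the corrected table ran from 2.55 to 12.5 M counts by library (M for mega), of which 3 genes that collect ribosomal RNA reads took 46.1% to 71.5%. Levels are given as counts per M after TMM scaling (CPM), and 3 counts in a library were worth 0.249 to 0.897 CPM. The 6 microglia markers summed to 11156 to 12190 CPM in microglia and to at most 1385 CPM elsewhere, and the 5 red pulp markers summed to 6367 to 9164 CPM in spleen and to at most 245 CPM elsewhere. Both SAM fibers libraries carried markers of other cells, 246 and 167 CPM over 6 fibroblast genes and 197 and 96.6 CPM over 6 Schwann cell and satellite glia genes in fibers 1 and 2. The 5 sympathetic neuron genes summed to 567 and 210 CPM there, 77.2 to 108 CPM in ganglia and at most 44.8 CPM elsewhere. The 5 megakaryocyte and platelet genes summed to 267 and 340 CPM in fibers, 198 to 254 CPM in ganglia, 237 to 372 CPM in vATM and at most 84.04 CPM elsewhere. In fibers, ganglia and vATM the latter sums came mostly from Pf4 (194 to 369 CPM). Both fibers libraries correlated with each other at 0.605, against 0.781 to 0.959 within the other groups. What these cells contribute to the members' levels in fibers was not tested.

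Every member except Itgb1 differed among the tissues, 9 of 10 by edgeR's quasi-likelihood test at an adjusted p below 0.05, where 22.2% of all tested genes did. Itgad is included in this count and in those of spleen and of pairs of groups below. Its calls there were bound to come, because it passed the filter only through spleen. A member is called higher or lower where, in addition, the log2 fold change is at least 1 in size. Microglia were set apart by high Itgam, Itgb5 and Itga6 and low Itgax, Itgal, Itga4 and Vcam1: 3 members were called higher than the mean of the other 5 groups and 4 lower, against 7.26% and 6.47% of all tested genes. Spleen had Itgad, Vcam1, Itgb2 and Itgax higher and Itgam and Itga6 lower, 4 and 2 of 10 members, against 6.72% and 5.72% of all genes. Fat (sATM and vATM together) had Itgam, Itgax and Itga4 higher and Itgb5, Itga6 and Vcam1 lower than the other 4 groups, 3 and 3 members, against 5.66% and 2.90% of all genes. Between pairs of groups, Itgax and Itga4 were called against microglia only. In these genes neither spleen nor either fat was called above a SAM group, or spleen and fat apart from each other.

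Fewer members were called for the sympathetic macrophages, and nothing is read from counts of 1 among 10 members. SAM (ganglia and fibers together) had Itga6 higher and Itgb2 lower than the other 4 groups, 1 and 1 of 10 members, against 5.71% and 3.44% of all genes. SAM fibers had Itga6, Vcam1 and Itgb5 higher and Itgb2 and Itgam lower than sATM, 3 and 2 members, against 1.85% and 2.99% of all genes. SAM ganglia had Itgb5 higher than SAM fibers, 1 member higher and 0 lower, against 2.85% and 1.27% of all genes, and 2 members passed an unadjusted p of 0.05. Between sATM and vATM edgeR called 0 of 10 members, against 0.0392% of all genes in either direction, with 2 members (Itgal and Itga4) under an unadjusted p of 0.05 and 1 (Itgal) called by DESeq2. Over all 15 pairs of groups 7.96% of gene tests were called, and by the same test Itgb5 was called in 13 pairs, Itga6 in 10, Vcam1 in 9, Itgam in 8, Itgb2 in 6, Itgax, Itgad and Itga4 in 5 each, Itgal in 3 and Itgb1 in 0. These comparisons share libraries, so they are not independent of each other. The median log2 fold change of the members without Itgad was -0.17 in microglia, 0.49 in spleen, 0.72 in fat and 0.50 in SAM, beside 0.29, -0.03, -0.06 and 0.02 over all tested genes. It was -1.16 in fibers against sATM, 0.36 in ganglia against fibers and 0.12 in sATM against vATM, beside 0.00, 0.00 and -0.04 over all tested genes.

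The scaling of the libraries weighed on both comparisons that use SAM fibers. With DESeq2's size factors (RLE scaling) in place of TMM, the median log2 fold change of all tested genes moved from 0.00 to 0.28 in fibers against sATM, and the split of called genes moved from 283 higher and 457 lower to 374 and 281. In ganglia against fibers it moved from 435 higher and 194 lower to 291 and 287, with the median going from 0.00 to -0.25. Median shifts of more than 0.1 also arose for fat (-0.06 to -0.17) and SAM (0.02 to 0.19). No member changed direction under this scaling, and Itgam in fibers against sATM was the one call lost (-1.39, adjusted p = 0.0559). With the uncorrected gene-body counts fewer members were called: Itgb5, Itga6 and Vcam1 in microglia, Itgam, Itgad and Vcam1 in spleen, Itgax and Itga4 in fat, and 0 in the other comparisons. The loss was general: of 21705 genes tested on those counts, 172 were called higher and 153 lower in microglia, 440 and 145 in spleen, 366 and 10 in fat, 15 and 2 in SAM, and 0 in the comparisons between 2 groups.

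**Figure D1:**
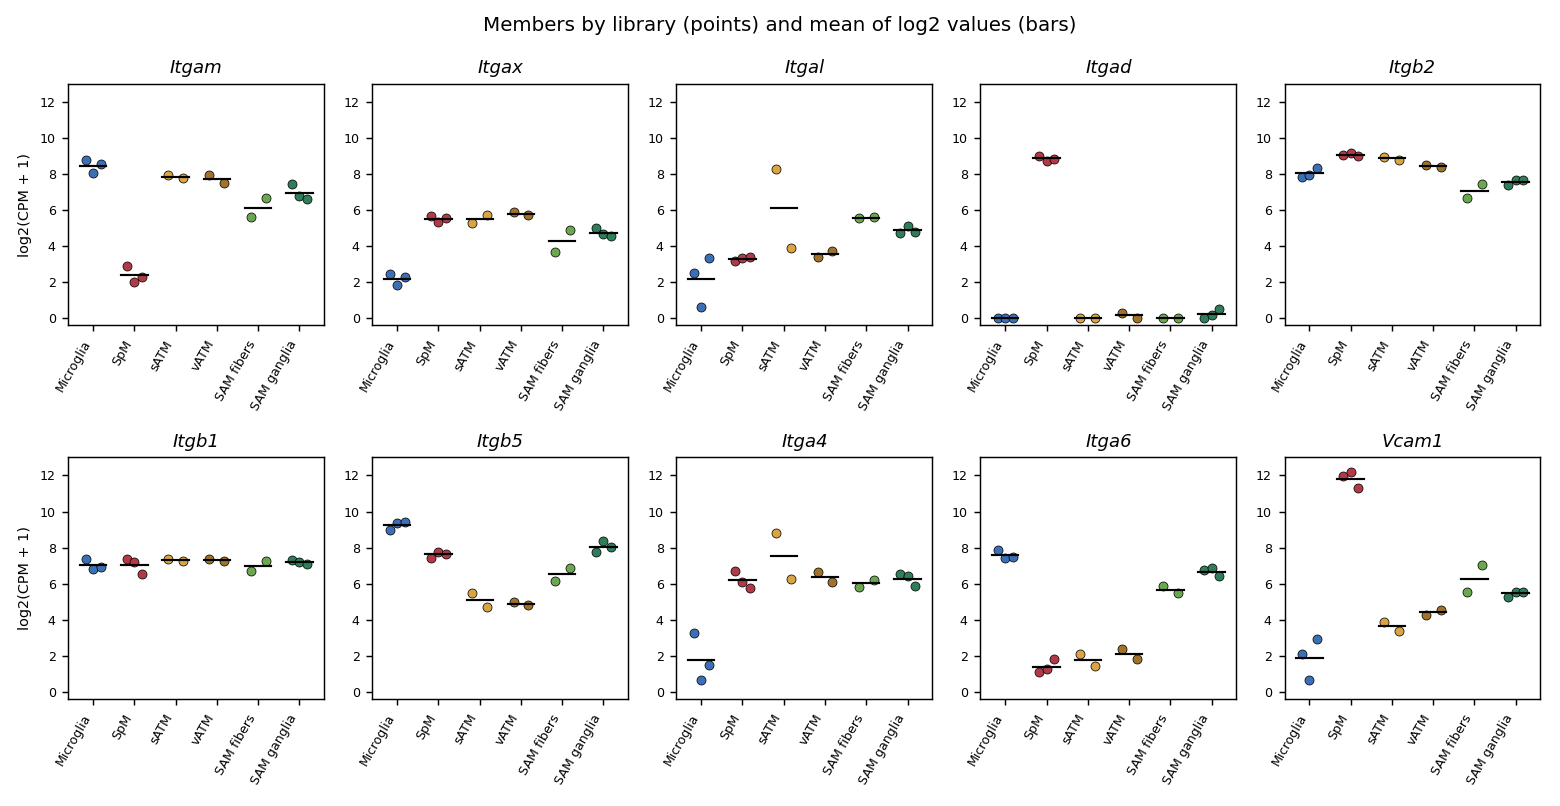
Each panel gives 1 member as log2(CPM + 1) on the vertical axis, with a point for each of the 15 libraries and a bar for the group mean of the log2 values. Itgad and Vcam1 stand out in spleen, Itga6 and Itgb5 in microglia, Itgam is low in spleen alone, and sATM 1 lies above sATM 2 for Itgal and Itga4, while Itgb1 is level throughout.

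The 4 alpha genes of the Itgb2 family lie on chromosome 7, plus strand, in mm10 as the count table gives them: Itgal at chr7:127296260-127335137, Itgam at chr7:128062640-128118491, Itgax at chr7:128129568-128150657 and Itgad at chr7:128173946-128205503. Only 11.1 kb separate Itgam from Itgax and 23.3 kb Itgax from Itgad, while Itgal lies 727.5 kb from Itgam. Across these 3 neighbours microglia had the highest Itgam and the lowest Itgax, and spleen had the lowest Itgam and the highest Itgad. The promoters of Itgam and Itgax are printed because these adjacent genes had opposite patterns in microglia and spleen, and that of Itgb1 because it was the member with no call. RefSeq promoter sequences (GRCm38.p6) matched 5 of the 10 members, and the 250 bases before the start are shown, plus strand, at chr7:128062390-128062639, chr7:128129300-128129549 and chr8:128685404-128685653, with motif matches in capitals.
Itgam: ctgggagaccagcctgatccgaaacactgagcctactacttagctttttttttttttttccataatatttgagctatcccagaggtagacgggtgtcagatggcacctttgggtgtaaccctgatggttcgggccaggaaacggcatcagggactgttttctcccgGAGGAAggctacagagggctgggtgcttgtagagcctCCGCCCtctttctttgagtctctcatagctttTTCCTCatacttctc
Itgax: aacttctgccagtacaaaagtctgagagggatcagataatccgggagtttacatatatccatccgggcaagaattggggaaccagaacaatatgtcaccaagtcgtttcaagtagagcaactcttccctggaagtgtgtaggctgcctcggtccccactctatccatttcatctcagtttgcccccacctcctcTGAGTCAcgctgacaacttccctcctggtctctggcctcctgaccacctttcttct
Itgb1: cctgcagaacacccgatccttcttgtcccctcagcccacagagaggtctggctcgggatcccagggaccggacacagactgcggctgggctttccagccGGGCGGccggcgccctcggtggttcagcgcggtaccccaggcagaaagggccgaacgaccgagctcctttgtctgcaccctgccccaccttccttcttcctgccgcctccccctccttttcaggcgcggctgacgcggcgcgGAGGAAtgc

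The motifs searched, on both strands, were GAGGAA (a core bound by Ets factors such as PU.1), TGTGGT (Runx), TGANTCA (AP-1) and GGGCGG (the GC box bound by Sp1), none of which overlap in these sequences. Itgam had 2 Ets cores, starting at -84 and, on the minus strand, at -15 from the RefSeq start of the gene, and 1 GC box at -47. Itgax had 1 AP-1 match at -56 and neither of the others in this window, and Itgb1 had 1 Ets core at -9 and 1 GC box at -151. Of 32851 promoters of this length, 23.3% held the Ets core, 14.05% the Runx motif, 6.75% the AP-1 motif and 32.7% the GC box. A match describes letters and not a bound site.

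The other members lie apart from this cluster, at chr10:77530348-77565674 (Itgb2), chr8:128685654-128733579 (Itgb1), chr16:33829665-33949338 (Itgb5), chr2:79255426-79333114 (Itga4) and chr2:71786939-71858427 (Itga6), all on the plus strand, and at chr3:116110020-116129688 on the minus strand (Vcam1). Whether the authors' counting used strand is not given in the sources used here, so reads of Itga4 cannot be told apart from those of Cerkl where both overlap on opposite strands. The same holds for Vcam1 with the antisense gene Gm43109 and for Itgad with Gm39091, 4931431B13Rik and Cox6a2, and Gm49368 overlaps Itgam on its own strand.

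Itgam encodes the CD11b chain of complement receptor 3. Its level was 427, 261 and 369 CPM in microglia 1 to 3, 247 and 215 CPM in sATM, 249 and 176 CPM in vATM, 170.1, 107 and 95.7 CPM in ganglia, 47.8 and 99.7 CPM in fibers, and 6.49, 3.06 and 3.96 CPM in spleen. Every spleen library lay below every other library, and every microglia library above every other. Against the mean of the other 5 groups Itgam was higher in microglia by a log2 fold change of 2.27 ± 0.24 (SE, adjusted p = 5.08e-06) and lower in spleen by -5.25 ± 0.39 (adjusted p = 1.08e-07). In the order of mean levels from microglia down through sATM, vATM, ganglia, fibers and spleen, the last step alone was called, and each of the other neighbours did not differ beyond the threshold.

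Fat macrophages had Itgam higher than the other 4 groups by 1.84 ± 0.23 in log2 (adjusted p = 5.72e-05), although the microglia libraries lay above them. Between pairs of groups Itgam was called higher in both fats than in spleen. It was called in neither fat against ganglia (adjusted p = 0.344 for sATM and 0.515 for vATM) or microglia (0.407 and 0.322), nor in vATM against fibers (0.0512). In fibers it was lower than in sATM by -1.64 ± 0.43 (adjusted p = 0.0403). That call was lost in 12 of 24 alternatives, among them leaving out fibers 1 (-1.28, adjusted p = 0.216), sATM 1 (-1.76, 0.0943) or sATM 2 (-1.79, 0.101), vATM 1 (0.0602) or vATM 2 (0.0599), microglia 3 (0.0605), ganglia 2 (0.0543) or SpM 3 (0.0525).

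Itgax encodes CD11c, best known on dendritic cells and on fat macrophages of obese animals. It stood at 4.41, 2.53 and 3.80 CPM in microglia, 49.0, 38.6 and 45.9 CPM in spleen, 37.9 and 52.4 CPM in sATM, 57.1 and 51.7 CPM in vATM, 11.96 and 28.3 CPM in fibers, and 31.4, 24.0 and 22.7 CPM in ganglia. Microglia were below all other libraries, and spleen and fat overlapped. All 5 calls of Itgax between pairs of groups involved microglia, and spleen was not called against fibers (1.13 ± 0.38, adjusted p = 0.0528) or ganglia (0.78 ± 0.33, 0.193). The log2 fold change was -3.27 ± 0.34 for microglia against the other 5 groups (adjusted p = 3.90e-06), 1.53 ± 0.22 for fat against the other 4 (2.24e-04) and 1.04 ± 0.24 for spleen against the other 5 (0.00728). The spleen call sat at the fold threshold: it was lost without SpM 1 (0.96, adjusted p = 0.0551) and without fibers 1 (0.99, 0.00425), and with DESeq2 (0.995, under the threshold). Fibers against sATM was not called (-1.16 ± 0.41, adjusted p = 0.120) and was called without fibers 2 (-1.98, 0.00546). Of the steps from vATM down to microglia, the one between fibers and microglia was called (2.46 ± 0.39, adjusted p = 3.58e-04).

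Itgad, the CD11d chain, was read almost solely in spleen, at 516, 422 and 460 CPM. It was listed at 0 in all 3 microglia, both sATM and both fibers libraries, in vATM 2 and in ganglia 1, and at 0.239 CPM in vATM 1, 0.133 in ganglia 2 and 0.401 in ganglia 3. Against the floor of 3 counts over a group, spleen was at least 3372-fold higher than microglia, at least 1962-fold higher than sATM and at least 1266-fold higher than fibers. The ratio to vATM, which rests on 2 counts, was 3891 (exact 95% interval 1077 to 32136), and that to ganglia, on 3 counts, 2650 (907 to 12853); these intervals cover counting error only. Some of these zeros may be failed estimates of the authors' correction, and the uncorrected counts over the whole gene body, introns included, ran from 4 (ganglia 1) to 478 (fibers 1) outside spleen and from 7627 to 13787 within it. Spleen was called higher against the other 5 groups, which was bound to happen because Itgad passed the filter only through spleen. The 4 eosinophil genes also summed to 655 to 915 CPM in spleen, nearly all from Ccr3 (653 to 912 CPM), against at most 30.9 CPM elsewhere, and their part in the level of Itgad was not tested.

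Itgal, the CD11a chain of LFA-1, was the most uneven member between libraries of a group. It was at 303 CPM in sATM 1 and 14.1 CPM in sATM 2, 9.34 and 12.4 CPM in vATM, 45.7 and 47.9 CPM in fibers, 25.2, 33.3 and 26.5 CPM in ganglia, 8.15, 9.19 and 9.43 CPM in spleen, and 4.59, 0.561 and 9.12 CPM in microglia. The library sATM 1 lay far above every other, and no step between neighbours in the order of mean levels was called. Microglia were called lower against the other 5 groups (-2.54 ± 0.71, adjusted p = 0.0213), with overlap with spleen, and the call was lost without microglia 1 (-2.46, 0.101) or microglia 2 (-2.09, 0.0894). It was also lost with voom, with log2(RPKM + 1) and with uncorrected gene-body counts. Between sATM and vATM the log2 fold change of 3.86 (SE 0.997) did not pass (adjusted p = 0.291). Without sATM 2, which leaves sATM 1 alone in its group, it was 4.75. Other calls of Itgal turned on these libraries: SAM against the other 4 groups was called without sATM 1 (1.87, adjusted p = 0.00983), without sATM 2 it was called in fat (1.89, 0.00712, and without both fibers libraries 1.93, 0.0158) and, in the lower direction, in spleen (-1.63, 0.0320).

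The same library, sATM 1, carried more of several monocyte genes. Of the 7 genes listed for monocytes low in Ly6C, a list chosen after the values of sATM 1 were seen and not tested, 5 were higher in sATM 1 than in sATM 2, as with Ace (344 and 7.82 CPM) and Treml4 (94.5 and 2.53 CPM), 1 was lower (Ear2, 117 and 338 CPM) and 1, Spn, was at 0 in both. Their sum was 709 and 354 CPM in sATM 1 and 2, 238 to 344 CPM in vATM, 566 to 832 CPM in spleen, 62.9 to 147 CPM in fibers, 24.7 to 76.4 CPM in ganglia and 11.8 to 16.6 CPM in microglia. Ear2 alone was at 230 and 338 CPM in vATM, and Treml4 alone at 393 to 543 CPM in spleen. The 6 genes listed for monocytes high in Ly6C, chosen in the same way, summed to 1943 and 1184 CPM in sATM 1 and 2, 974 and 775 CPM in vATM, 745 and 637 CPM in fibers, 529 to 858 CPM in ganglia and 12.7 to 61.2 CPM in spleen and microglia. Of these genes, Ccr2 alone was at 1031 and 1027 CPM in sATM, 961 and 688 CPM in vATM, 198 and 336 CPM in fibers and 476 to 818 CPM in ganglia. Ly6c2 was at 281 and 59.3 CPM in sATM, 2.87 and 2.46 CPM in vATM, 289 and 120 CPM in fibers and 5.31 to 37.1 CPM in ganglia. The 6 lymphocyte markers, whose cells also express Itgal, summed to 10.7 and 1.38 CPM in sATM 1 and 2, with none at 0 in sATM 1, and to 18.3 to 19.3 CPM in spleen, 8.33 to 11.4 CPM in fibers, 1.86 to 5.02 CPM in ganglia and at most 4.21 CPM in the other groups. The part of such cells in the level of Itgal was not tested.

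Set side by side per length of transcript, the Itgb2 partners changed identity between tissues. The RPKM table gives reads per kilobase of transcript and M mapped reads, and shares of the summed RPKM of Itgam, Itgal, Itgax and Itgad were taken in each library. Itgam held 97.7 ± 0.993% (SD, n = 3) in microglia, 74.0 ± 3.94% (n = 2) in vATM, 68.2 ± 5.25% (n = 3) in ganglia and 51.6 ± 7.29% (n = 2) in fibers, and 0.720 ± 0.207% (n = 3) in spleen. In spleen Itgad held 89.6 ± 0.330% and Itgax 8.41 ± 0.330% (n = 3 each). Both sATM libraries disagreed: Itgam held 43.9% and Itgal 48.3% in sATM 1, and 74.4% and 4.39% in sATM 2. Itgal took 39.95% and 24.4% in fibers 1 and 2, and 14.7 ± 4.34% in ganglia (n = 3).

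**Figure D2:**
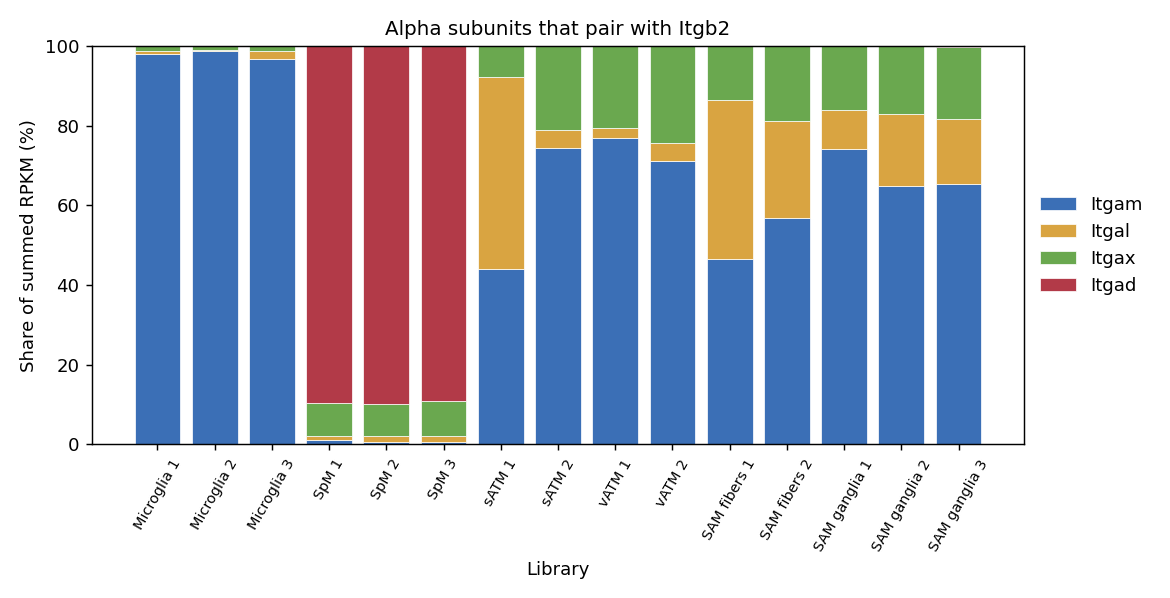
Stacked bars show, for each of the 15 libraries, the share in percent of the summed RPKM of the 4 alpha subunits that pair with Itgb2. Itgam fills 96.7% to 98.7% of the microglia bars and Itgad 89.2% to 89.9% of the spleen bars, and Itgal takes 48.3% of sATM 1.

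The common beta chain Itgb2, whose loss causes leukocyte adhesion deficiency, moved far less than its partners. It read 229.8, 239.7 and 317 CPM in microglia, 533, 577 and 499 CPM in spleen, 495 and 436 CPM in sATM, 365 and 338 CPM in vATM, 99.8 and 170.3 CPM in fibers, and 169, 199 and 205 CPM in ganglia. In CPM the spleen libraries were all above the rest and the SAM libraries all below. In RPKM the SAM libraries overlapped others, with ganglia 3 at 87.1 above microglia 1 at 80.1 and vATM 1 at 85.1. Spleen was higher than the other 5 groups by 1.07 ± 0.18 (adjusted p = 4.32e-04), and SAM was lower than the other 4 by -1.28 ± 0.17 (1.59e-04). Fibers were lower than sATM by -1.78 ± 0.30 (adjusted p = 0.00374), a call lost without fibers 1 (-1.52, 0.0751), and the spleen call fell under the fold threshold without both fibers libraries (0.84, adjusted p = 0.00163). In fat Itgb2 passed the p threshold at 0.72 ± 0.17 (adjusted p = 0.00878), below the fold set for a call, and no step between neighbours from spleen to fibers was called.

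Per length, Itgb2 in RPKM was 0.861 to 2.47 times the sum of its 4 alpha partners in the single libraries. The group mean of this ratio was lowest in microglia (1.23), followed by spleen (1.44), fibers (1.59), ganglia (1.82), sATM (1.95) and vATM (2.04). The ganglia libraries alone spanned 1.201 to 2.29, a range that overlapped every other group.

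Itgb1, the beta chain shared by the laminin, collagen, fibronectin and VCAM-1 receptors, was the flat member. Its level was 164, 111 and 119 CPM in microglia, 162, 145 and 93.4 CPM in spleen, 162 and 153 CPM in sATM, 163 and 153 CPM in vATM, 102 and 152 CPM in fibers, and 159, 146.5 and 135 CPM in ganglia. No group stood clear of all others, and the test over all 6 groups gave an adjusted p of 0.889. Its log2 fold changes in the 7 comparisons ran from -0.30 ± 0.32 (fibers against sATM) to 0.23 ± 0.18 (fat against the other 4 groups).

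Around that steady beta chain both alpha partners moved in different directions. Itga6, the laminin-binding chain also made by Schwann cells and epithelia, stood at 232, 174 and 176 CPM in microglia, 105.5, 114 and 85.1 CPM in ganglia, 58.3 and 43.3 CPM in fibers, 4.31 and 2.58 CPM in vATM, 3.31 and 1.72 CPM in sATM, and 1.16, 1.42 and 2.59 CPM in spleen. The libraries fell into 3 ranges without overlap, microglia above ganglia above fibers, and a low range that spleen and both fats shared. It was higher in microglia than in the other 5 groups by 4.37 ± 0.22 (adjusted p = 1.78e-09) and in SAM than in the other 4 by 3.31 ± 0.22 (7.10e-08), and lower in spleen (-3.85 ± 0.35, 7.59e-07) and fat (-3.64 ± 0.30, 6.85e-07). Fibers had it 4.40 ± 0.47 higher than sATM (adjusted p = 2.98e-04). Of the steps down from microglia, that from fibers to vATM was called (3.87 ± 0.44, adjusted p = 3.39e-04), and those from microglia to ganglia (0.93 ± 0.31, 0.0927) and from ganglia to fibers (1.002 ± 0.36, 0.132) were not.

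Cells that the sort may have carried along differed between the same tissues as Itga6. The 6 Schwann cell and satellite glia genes summed to 197 and 96.6 CPM in fibers 1 and 2, with none at 0, to 23.8 to 56.6 CPM in ganglia, to 9.95 to 17.2 CPM in microglia and to at most 12.99 CPM in fat and spleen. The 6 microglia genes summed to 1049 to 1385 CPM in ganglia and to 103 and 136 CPM in fibers, against 11156 to 12190 CPM in microglia. Sall1, which defines microglia, was at 10.4 to 14.7 CPM in ganglia and 0 in both fibers libraries, against 384 to 428 CPM in microglia. Sympathetic neuron genes, at 77.2 CPM or more in every SAM library and at most 44.8 CPM elsewhere, also moved with the SAM groups. The megakaryocyte and platelet genes summed to 198 to 340 CPM in SAM and to 372 and 237 CPM in vATM. Pf4 made up most of these sums (194 to 331 CPM in SAM, 369 and 235 CPM in vATM). Another gene of that list, Gp9, was highest in microglia (26.0 to 47.2 CPM), and Itga2b reached at most 1.27 CPM. The part of any of these cell types in the level of Itga6 was not tested.

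Itga4, the chain of VLA-4 that receives VCAM-1, was near absent in microglia alone. It was at 8.48, 0.561 and 1.82 CPM there, against 105, 67.2 and 52.5 CPM in spleen, 442 and 76.1 CPM in sATM, 97.8 and 66.4 CPM in vATM, 56.2 and 72.5 CPM in fibers, and 92.3, 85.4 and 58.4 CPM in ganglia. All libraries outside microglia lay between 52.5 and 105 CPM except sATM 1, which was the highest, as it was for Itgal. Microglia were lower than the other 5 groups by -4.57 ± 0.69 (adjusted p = 1.63e-04), and of the neighbouring steps the one from fibers to microglia was called (3.99 ± 0.75, adjusted p = 0.00150). All 5 calls of Itga4 between pairs of groups involved microglia, and neither fat was called against spleen, fibers or ganglia. Fat was higher than the other 4 groups by 2.05 ± 0.42 (adjusted p = 0.00364), a call lost without sATM 1 (1.26, adjusted p = 0.0848).

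In RPKM, Itga6 made up 97.8% to 99.8% of the sum of Itga6 and Itga4 in the microglia libraries and 1.76% to 7.37% in spleen. Its share was 1.22% and 3.74% in sATM and 6.45% and 6.14% in vATM. Ganglia (65.2% to 70.6%) and fibers (63.0% and 49.6%) lay between, with both chains read at once. Itgb1 in the same libraries was between 20.1 RPKM (fibers 1) and 40.5 RPKM (SpM 1).

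**Figure D3:**
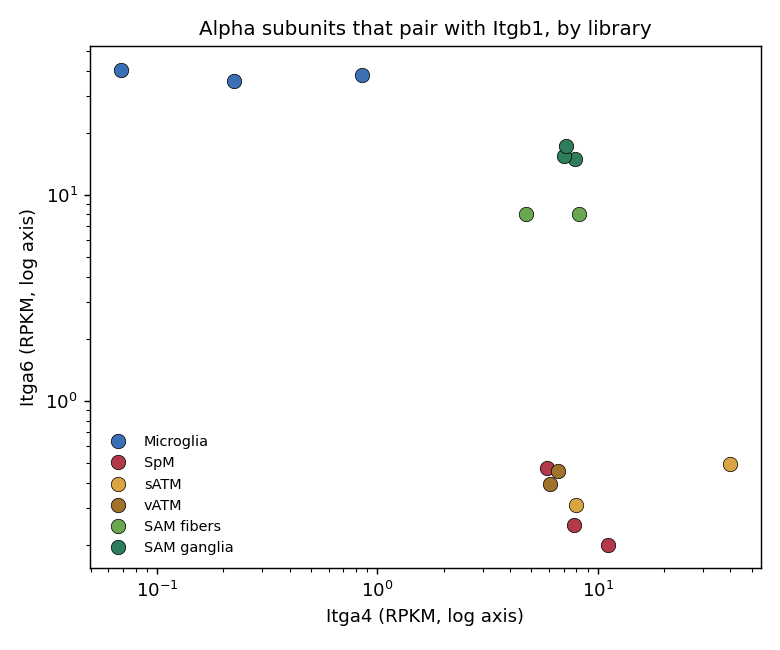
Each point is 1 library, with Itga4 in RPKM on the horizontal and Itga6 in RPKM on the vertical axis, both on log scales. Microglia sit at the upper left (Itga6 35.4 to 40.4 RPKM), spleen and fat at the lower right, ganglia and fibers at the upper right with both chains at 4.70 RPKM or more, and sATM 1 at the far right (Itga4 39.8 RPKM).

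Itgb5, the beta chain that with Itgav takes part in the uptake of dying cells, spread the groups most evenly. It read 494, 666 and 674 CPM in microglia, 217, 327 and 257 CPM in ganglia, 173, 217 and 203 CPM in spleen, 71.1 and 118 CPM in fibers, 43.8 and 25.3 CPM in sATM, and 30.8 and 26.8 CPM in vATM. Microglia, ganglia, spleen, fibers and fat followed each other downward without overlap, and both fats overlapped with each other. Ganglia and spleen were parted by less than 1 CPM (217.5 in ganglia 1 and 216.6 in SpM 2), and in RPKM they overlapped, with ganglia 1 at 55.8 below SpM 2 at 75.6 and SpM 3 at 67.4. The log2 fold change was 2.81 ± 0.19 for microglia against the other 5 groups (adjusted p = 4.95e-08) and -2.90 ± 0.24 for fat against the other 4 (6.95e-07). The steps from microglia to ganglia (1.19 ± 0.28, adjusted p = 0.0124), from spleen to fibers (1.06 ± 0.32, 0.0316) and from fibers to sATM (1.46 ± 0.35, 0.0266) were called, and those from ganglia to spleen (0.44 ± 0.27, 0.465) and from sATM to vATM (0.26 ± 0.34, 1) were not.

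The Itgb5 differences that involve fibers were the least firm. Ganglia exceeded fibers by 1.49 ± 0.32 (adjusted p = 0.0167), a call lost without fibers 1 (1.19, 0.207) or ganglia 2 (1.32, 0.0606). Fibers against sATM lost its call in 10 of 24 alternatives, with adjusted p of 0.0951 without fibers 2, 0.0964 without sATM 1, 0.333 without sATM 2, 0.111 without vATM 1 or vATM 2 and 0.0588 without microglia 1. In 1 more, uncorrected gene-body counts, the fold change turned to -0.32 (adjusted p = 0.810); the raw count in fibers 1 was 2802 and the corrected one 238. In spleen Itgb5 was at 0.86 ± 0.21 against the other 5 groups (adjusted p = 0.00860), under the fold set for a call, and was called without sATM 1 (1.03, 0.00704). For SAM it was at 0.61 ± 0.19 (adjusted p = 0.0459), under that fold too, and called without both fibers libraries (1.36, 2.86e-04).

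Vcam1, the ligand of Itga4 with Itgb1, was highest in spleen by far. It stood at 3973, 4610 and 2570 CPM in spleen, against 45.1 and 131 CPM in fibers, 38.1, 45.8 and 46.1 CPM in ganglia, 18.4 and 22.2 CPM in vATM, 14.01 and 9.31 CPM in sATM, and 3.37, 0.561 and 6.69 CPM in microglia. No spleen library came near another group, and microglia lay below all other libraries. The log2 fold change of spleen against the other 5 groups was 7.52 ± 0.35 (adjusted p = 1.49e-09), and that of microglia was -4.42 ± 0.51 (1.28e-05). Fat was lower than the other 4 groups by -2.48 ± 0.39 (adjusted p = 4.78e-04). Between pairs of groups both fats were called below spleen, and sATM below fibers. Neither fat was called against ganglia (adjusted p = 0.111 for sATM and 0.527 for vATM), nor vATM against fibers (0.0504). Microglia were called below vATM (-2.44 ± 0.55, adjusted p = 0.00721) and not against sATM (0.0815). The step from spleen to fibers, the next group, was called (5.40 ± 0.66, adjusted p = 3.52e-05), and the later steps down to microglia were not.

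Endothelial cells also make VCAM-1, and the sum of 6 endothelial genes was highest in spleen, mostly through Pecam1. Of the 6, Cdh5, Kdr, Tek, Emcn and Cldn5 were each at most 1.37 CPM in every spleen library, with Tek at 0 in all 3, and Pecam1 was at 44.7 to 65.3 CPM. The summed level was 48.1 to 65.9 CPM in spleen, 8.67 and 9.37 CPM in fibers, 3.46 to 11.4 CPM in ganglia, 6.46 to 14.6 CPM in microglia and 4.18 to 15.3 CPM in fat. The part of endothelial cells in the level of Vcam1 in spleen was not tested. In fibers Vcam1 was called higher than in sATM (2.93 ± 0.62, adjusted p = 0.0138), and the call was lost without sATM 1 (3.03, 0.0942) or sATM 2 (2.61, 0.167). Fibroblast genes, from cells that can also make VCAM-1, summed there to 246 and 167 CPM, against 19.4 and 26.8 CPM in sATM, and their part was not tested.

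**Figure D4:**
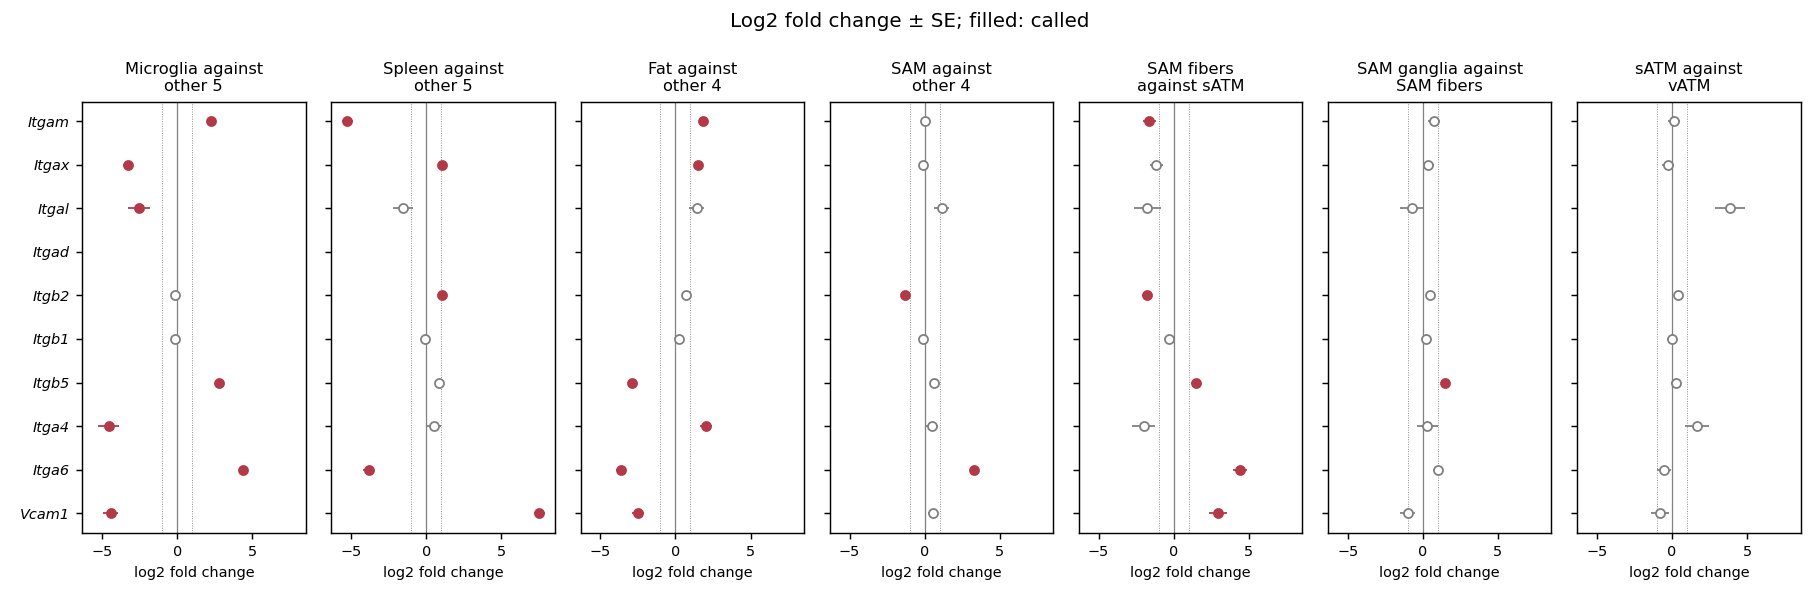
Log2 fold changes of the members (points, with SE bars) in the 7 comparisons, with filled points for called members and dotted lines at the fold of a call. Itgad is not drawn because at least 1 group was listed at 0 in each comparison, and the widest range among the others is that of Vcam1, from -4.42 in microglia to 7.52 in spleen.

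Over the 15 libraries the members' log2 levels were related as follows, as a description in which the points share groups and depth. Itgam ran opposite to Vcam1 (Pearson r = -0.95) and to Itgad (-0.93), and Itgad ran with Vcam1 (0.90). Itgax ran with Itga4 (0.87) and opposite to Itga6 (-0.81). Itgb1 reached no more than 0.45 with any other member in size.

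Among 8078 genes of sufficient level, the closest in pattern to each member over the 15 libraries were these, by Pearson r of log2(CPM + 1). Itgad was followed by Shroom3 (0.998), Slc45a3 (0.997) and St6galnac2 (0.995), and Vcam1 by Matn2 (0.969), Spic (0.962), which encodes a transcription factor of red pulp macrophages, and Sema6d (0.959). Itga6 was followed by Gpr165 (0.981), Arl4c (0.978) and Col15a1 (0.965), and Itgb5 by Lpcat2 (0.979), F11r (0.972), which encodes the adhesion molecule JAM-A, and Il21r (0.969). Itgam was nearest to Lims1 (0.967), which encodes the integrin adaptor PINCH-1, Ckap4 (0.956) and Ints6l (0.956), and Itgax to Bhlhe40 (0.969), Iqgap1 (0.969) and Capn1 (0.965).

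Itga4 was nearest to Cybb (0.974), a subunit of the phagocyte oxidase, Ifi209 (0.960) and Rara (0.957), and Itgb2 to genes that included Tssc1 (0.948) and Rnf166 (0.933). Itgal was nearest to Ace (0.936), one of the monocyte genes above, Apoc2 (0.918) and Bcl2 (0.899), and Itgb1 to Fxr1 (0.916), Strn (0.898) and Syap1 (0.891). These were taken from the top 3 of all candidates, so high values are reached for any gene whose level follows the tissues.

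Of the other integrin subunits, 17 were listed. Of these, 15 were in the table and 10 passed the filter. In microglia 3 were called higher (Itga9, Itgav, Itgb3) and 2 lower (Itga5, Itgb7), in spleen 1 higher (Itga9) and 2 lower (Itga5, Itgb7), and in fat 1 higher (Itgb7) and 2 lower (Itga9, Itgav). SAM had 1 higher (Itga5) and 0 lower, fibers against sATM 0 and 1 (Itgb7), ganglia against fibers 1 (Itga9) and 1 (Itga5), and sATM against vATM 0. With 10 genes tested, 1 call is already 10% of them, above the share of all tested genes called in any of these comparisons (0.0392% to 7.26%), so nothing is read from these counts.

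Itga9, which like Itga4 pairs with Itgb1 and can bind VCAM-1, was read in 3 tissues. It was at 296, 238 and 193 CPM in spleen, 27.9, 22.2 and 25.1 CPM in microglia, 14.3, 24.2 and 15.6 CPM in ganglia, 0.299 and 0 CPM in fibers, and 0 in all 4 fat libraries. No fold is given for the contrasts that include fat, where the fit calls Itga9 higher in microglia although spleen lies above them (adjusted p = 2.71e-07) and lower in fat (1.10e-04, lost without fibers 1). Ganglia and fibers did not overlap (adjusted p = 2.63e-04, with 1 count in both fibers libraries together), and voom did not call this difference (adjusted p = 0.150).

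Itgav, the alpha chain that pairs with Itgb5, had the order of Itgb5 in part, at 101, 63.4 and 58.7 CPM in microglia, 49.7, 40.7 and 22.2 CPM in spleen, 42.5, 38.7 and 31.5 CPM in ganglia, 36.2 and 17.9 CPM in sATM, 18.2 and 20.8 CPM in fibers, and 11.4 and 7.87 CPM in vATM. It was higher in microglia by 1.67 ± 0.26 (adjusted p = 2.19e-04) and lower in fat by -1.24 ± 0.28 (0.00768), the latter lost without sATM 2 (0.0852), vATM 1 (0.0502) or vATM 2 (0.0925). Itgb3, another Itgav partner, was at 43.2, 36.8 and 40.7 CPM in microglia and at most 7.38 CPM in any other library, a log2 fold change of 4.02 ± 0.59 (adjusted p = 1.24e-04).

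Itgb7, the second beta partner of Itga4, was higher in fat than in the other 4 groups by 2.52 ± 0.25 (adjusted p = 4.41e-06), at 119 and 49.0 CPM in sATM and 46.9 and 38.5 CPM in vATM against 3.09 to 3.72 CPM in microglia and 5.02 to 6.24 CPM in spleen. As with Itga4 and Itgal, sATM 1 was its highest library. Its lower level in fibers than in sATM (-2.03 ± 0.47, adjusted p = 0.0221) was lost without fibers 1 (-1.86, 0.102) or sATM 1 (-1.50, 0.190). Itga5, the fibronectin receptor chain, was lower in spleen (-2.66 ± 0.48, adjusted p = 9.64e-04). It was at 26.0 CPM in fibers 1 and 173 CPM in fibers 2, and its call in SAM (1.95 ± 0.33, adjusted p = 9.96e-04) was lost without fibers 2 (0.95, 0.0135). Ganglia against fibers (-2.37 ± 0.55, adjusted p = 0.0224) was lost for Itga5 without fibers 2 (-0.37, 0.563), ganglia 1 (0.0748) or 3 (0.0768) and vATM 1 (0.0593) or 2 (0.0591).

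**Figure D5:**
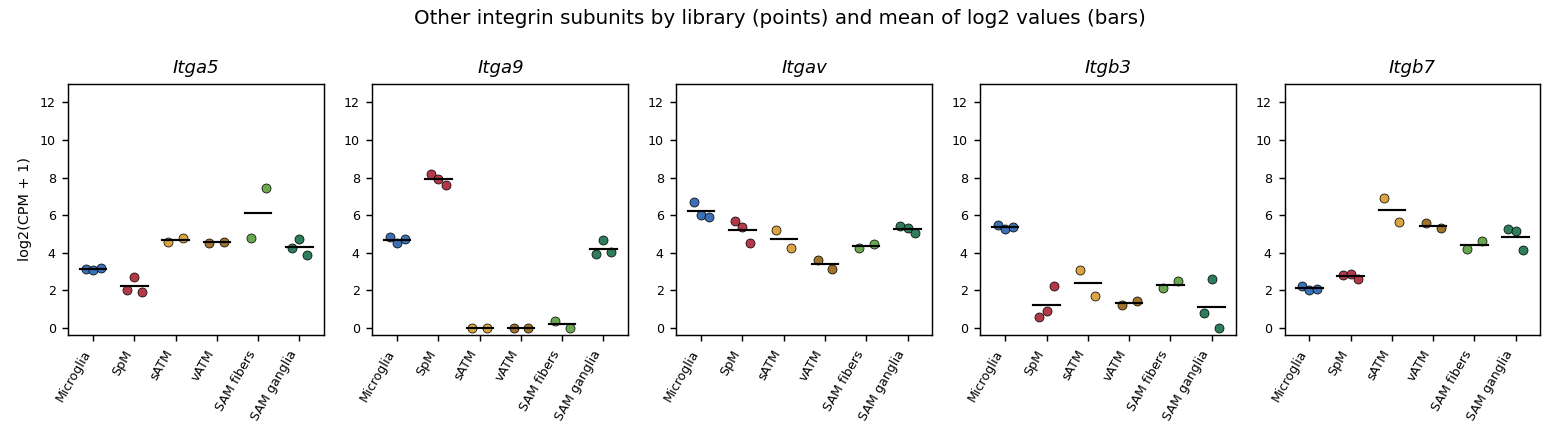
The 5 other integrin subunits called in at least 1 comparison and described in the text, as log2(CPM + 1) with a point per library and a bar for the group mean of the log2 values. Itga9 is highest in spleen (193 to 296 CPM) and at 0 in fat, Itgb3 stands out in microglia (36.8 to 43.2 CPM), and fibers 2 stands above fibers 1 for Itga5.

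Genes that link integrins to the cytoskeleton and to kinases, 32 listed and all tested, were called in both directions. Counts of higher and lower genes were 4 and 8 in microglia, 9 and 4 in spleen, 5 and 2 in fat, 2 and 3 in SAM, 1 and 2 in fibers against sATM, 2 and 1 in ganglia against fibers, and 0 and 0 between the fats. Over all tested genes the higher and lower shares were 7.26% and 6.47% in microglia, 6.72% and 5.72% in spleen, 5.66% and 2.90% in fat, 5.71% and 3.44% in SAM, 1.85% and 2.99% in fibers against sATM, and 2.85% and 1.27% in ganglia against fibers, and several of the counts, such as 2 and 3 of 32 in SAM, lie near them. Parvg, the parvin of blood cells, was higher in microglia (2.56 ± 0.33) and in spleen (3.75 ± 0.32) and lower in fat (-3.25 ± 0.41), with adjusted p of 3.00e-05, 4.23e-07 and 6.45e-05. Fgr, a Src-family kinase that acts behind Itgb2 integrins, was lower in microglia (-4.55 ± 0.48, adjusted p = 4.87e-06) and higher in spleen (3.17 ± 0.30, 1.24e-06) and fat (1.91 ± 0.29, 3.43e-04). Zyx, a focal adhesion protein, was lower in microglia (-2.08 ± 0.30, adjusted p = 1.23e-04) and higher in fat (1.85 ± 0.22, 3.21e-05). The median log2 fold change of these 32 genes was -0.31 in microglia, 0.12 in spleen and 0.47 in fat, beside 0.29, -0.03 and -0.06 over all tested genes.

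Of 21 integrin ligands listed, 13 were tested. They were called higher and lower in 1 and 3 cases in microglia, 1 and 4 in spleen, 4 and 1 in fat, 3 and 0 in SAM, 1 and 1 in fibers against sATM, 0 and 2 in ganglia against fibers, and 0 and 0 between the fats, beside the same shares of all tested genes. With 13 genes tested, nothing is read from these counts. Fn1, fibronectin, was higher in fat by 5.86 ± 0.47 (adjusted p = 5.73e-07), at 855 and 2614 CPM in sATM and 2684 and 2306 CPM in vATM against 0.842 to 13.2 CPM in microglia, 16.6 to 31.0 CPM in spleen, 14.1 to 88.4 CPM in ganglia, and 207 and 139 CPM in fibers. Icam1, the main ligand of the Itgb2 family, was at 116 and 670 CPM in fibers and at 29.6 to 43.5 CPM in ganglia, and was lower in ganglia by -3.47 ± 0.49 (adjusted p = 0.00131). Its higher level in fibers than in sATM (2.94 ± 0.56, adjusted p = 0.00760) was lost without sATM 1 (0.0870) or sATM 2 (0.0885).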

How the data were processed

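RNA-seq of sorted macrophages was used as deposited, in 3 tables of the whole series. In the main one (24084 genes) the authors deposited estimated counts, with DNA contamination taken out according to the table's name. The second holds RPKM values the authors deposited after the same step (24414 genes), and the third raw counts over gene bodies as deposited, without it (24525 genes). How contamination was removed is not given in the sources used here. The submitters' processing notes name STAR, HOMER and mm10, without versions or settings. The RPKM table uses another transcript for Itgb5 and Itga6.

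Corrected counts were rounded and passed to edgeR 4.0.16 (R 4.3.3): filterByExpr with a minimum count of 10, TMM scaling (factors 0.668 to 1.40), 1 mean per group with the spread estimated jointly from the 15 libraries (common biological coefficient of variation 0.680), and the quasi-likelihood test with Benjamini-Hochberg adjustment over 15289 genes. A call needs an adjusted p below 0.05 and a log2 fold change of 1 or more in size. SE is the fold change over the root of the F statistic. Where several groups stand on a side, they are weighted equally on the log2 scale. DESeq2 1.42.0, limma 3.58.1 and the settings of the closing section were alternatives. The fit was also run on simulated counts, with the same spread for every gene and rises set in spleen alone. That run cannot show how calls fare in groups with fewer libraries or with a library that stands apart, and nothing is drawn from it.

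Named are all 10 members, up to 4 called genes of each companion list per comparison (smallest p first), and the 3 genes closest to each member in pattern, among genes with a mean of at least 10 CPM in 1 or more groups, without predicted, clone-named, small RNA and mitochondrial genes. 1 of these genes is not reported here. The members and lists were chosen with earlier results of these data known. The labels do not say whether a replicate number marks shared animals. Of 33 same-numbered pairs, 16 had correlated deviations over 0.1, and the range was -0.38 to 0.64. Pairs of different numbers were not compared, and in groups of 2 libraries the deviations mirror each other. This check therefore cannot settle whether the numbers pair libraries.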

Additional observations from a re-analysis of the deposited data

How the results depend on the processing

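Of 27 member calls, 7 held under every alternative run and 20 were lost in at least 1, and 11 of the 43 uncalled results gained a call in at least 1. The 27 include that of Itgad in spleen, which was bound to come because Itgad passed the filter only through spleen. Uncorrected gene-body counts changed most: members called went from 7 to 3 in microglia, 6 to 3 in spleen, 6 to 2 in fat, 2 to 0 in SAM, 5 to 0 in fibers against sATM, 1 to 0 in ganglia against fibers, 9 to 5 for any difference, and 9 to 2 of 50 neighbouring steps. The groups of each step were ordered by the same levels that were then tested. No share over all genes was taken for such steps, so nothing is read from their number. The step of Itgad from spleen to ganglia, among the 9, was bound to be called. Calls over all genes fell likewise (172 higher and 153 lower in microglia, against 1110 and 989). Under them fold changes reversed for Itgb5 in fibers against sATM (-0.32), Itga9 in microglia (-0.40) and fat (0.51), Lamc1 in fat (-0.12), and Ptk2 (-0.76) and Fgr (0.0634) in ganglia against fibers; Ptk2 in SAM reversed without both fibers libraries (0.0309). The cause was not tested. Fibers against sATM gave 2 calls with voom and with log2(RPKM + 0.1), and ganglia against fibers 0 with voom. Itgal made the count between the fats 1 with no filter on low counts and with DESeq2. Leaving out 1 library gave 2 to 5 calls in fibers against sATM (2 without sATM 1 or sATM 2, 3 without fibers 1, vATM 1 or vATM 2), 0 to 1 in ganglia against fibers (0 without fibers 1 or ganglia 2), 0 to 1 between the fats (1 without sATM 2) and 6 to 9 of the neighbouring steps (6 without vATM 2). With the replicate block the counts were 7 in microglia, 6 in spleen, 6 in fat, 2 in SAM and 5 in fibers against sATM, as without it. Whether the numbers pair the libraries is not known. With a lone library left in a group, its spread is assumed to be that of the others. The neighbouring steps were not run without both fibers libraries. Depth limits levels under 3 counts, 0.249 to 0.897 CPM, which covers the Itgad values outside spleen and the 0.561 CPM of Itgal, Itga4 and Vcam1 in microglia 2.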
